A study of Mus musculus with 357 samples.

Results

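The ETS family of transcription factors was represented by 4 of the 96 gene assays with which single mouse hematopoietic stem cells (HSCs) were profiled by quantitative PCR: Erg, Fli1, Etv6 and Sfpi. They were taken by name as the family members among the assays, with earlier results of these data known. The name Sfpi matched no gene symbol. RefSeq gives Sfpi1 and Sfpi-1 as older names of Spi1, the gene of PU.1, so the assay probably reads Spi1, and it is called Sfpi throughout. Col1a1-tetO-H2B-mCherry mice supplied the bone marrow, from which Lin-Sca1+c-kit+CD48-CD150+ cells were sorted. They were taken 5 weeks after a fluorescent histone had been induced (91 cells on plate 1 and 83 on plate 2) or 2 weeks after it (90 and 93 cells), 357 in all. All cells shared the transgene and the induction. Histone label is shared out between daughter cells, so the cells that have kept most of it have divided least, but no label intensity per cell was used here. The labels name neither the animals nor their age, and each plate held cells of 1 time, so plate and time cannot be told apart and each time counted as 1 sample, with no test between times.

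ETS factors bind DNA through a winged helix-turn-helix domain, named after the E26 virus oncogene, that reads a short core with the letters GGAA. Erg and Fli1 are close relatives that sit with Tal1, Lyl1, Lmo2, Gata2 and Runx1 on many enhancers of blood stem cells. Erg is needed to maintain HSCs, and Fli1 also drives genes of megakaryocytes, the platelet-forming cells. Etv6, also called TEL, is a repressor that adult HSCs need to survive in the marrow. PU.1 promotes the myeloid and lymphoid lineages, is kept at moderate levels in stem cells and opposes Gata1, the erythroid and megakaryocytic factor.

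The sequence these proteins read can be seen in the promoter of Etv6, the member whose level differed between times and which has an entry among the RefSeq promoters. The 250 bases before its start on GRCm38.p6, plus strand, at chr6:134035450-134035699, are shown with the core GGAA or its reverse complement TTCC in capitals.
Etv6: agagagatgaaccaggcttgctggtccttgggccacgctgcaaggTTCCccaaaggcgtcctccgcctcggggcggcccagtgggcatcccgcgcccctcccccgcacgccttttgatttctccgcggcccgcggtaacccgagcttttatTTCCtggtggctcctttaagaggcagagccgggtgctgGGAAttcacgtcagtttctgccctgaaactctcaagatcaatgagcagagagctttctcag
This window held 3 such cores on either strand. Of 32851 promoter windows of that length, 93.4% held at least 1 core and 54.7% held 3 or more, so the count is a common one. Erg, whose levels overlapped between times, also has entries among these promoters, and its windows held 0, 4 and 2 cores. A match describes letters, and no binding was measured. Sequences of the assay primers were not used here.

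The transcripts of the sort markers followed the sorted phenotype in part. Kit, which encodes c-kit, had a product in 99.4% of 5-week cells and 98.9% of 2-week cells, and Cd48 in 1.72% and 1.09%. Ly6a, which encodes Sca1, had a product in 72.99% of 5-week cells and 91.3% of 2-week cells, and Slamf1, which encodes CD150, in 55.7% and 72.1%. The sort markers Sca1 and CD150 were thus unread as transcripts in a share of the cells that was larger at 5 weeks. Of 3 B and T lineage genes, Ebf1 was found in 0 of 357 cells, which allows a share of up to 0.84%, Tcf7 in 1.15% of 5-week and 1.09% of 2-week cells, and Dntt in 6.90 and 8.74%. Of 3 measured stem cell markers, Hlf had a product in 99.4% of 5-week cells and 99.5% of 2-week cells, Meis1 in 100 and 98.9%, and Fgd5 in 48.3 and 44.8%. None of the 4 endothelial or 8 mature blood markers on the marker lists was among the assays, so other cells that express Erg, Fli1 or PU.1 could be looked for only through these genes. The mean threshold cycle (Ct, the PCR cycle at which a product becomes visible, lower for more template) of 13 reference assays was 12.97 ± 0.66 at 5 weeks and 13.4 ± 0.54 at 2 weeks (SD over cells), and a cell had a product in 58.8 ± 5.71 against 54.6 ± 5.36 assays. The 5-week cells thus had earlier reference products and more products per cell, and the part of this in the differences between times was not tested beyond the fits given with them.

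All 4 ETS assays were read in most of these stem cells, and 3 of them in nearly all. Counting a product at Ct 25 or below, all 4 were detected together in 83.3% of 5-week cells (exact 95% interval 76.9 to 88.5%), against 68.9% of 2-week cells (61.6 to 75.5%). By plate this was 79 of 91 and 66 of 83 cells at 5 weeks (86.8 and 79.5%), against 68 of 90 and 58 of 93 cells at 2 weeks (75.6 and 62.4%). The 5-week plates lay above the 2-week plates, with plate-to-plate differences between 3.96 and 24.4 points around the overall 14.5 points. The intervals here and below cover counting error only. The difference was 8.85 points in a linear fit that also held the cell's reference Ct, and between 7.78 and 20.97 points without 1 plate (the lowest without 2-week plate 2, the highest without 2-week plate 1).

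Cells lacking 1 member mostly lacked Sfpi. Of the 81 cells with 3 members, 63 lacked Sfpi alone (17 at 5 weeks, 46 at 2 weeks), 13 lacked Fli1 alone (2 and 11) and 5 lacked Erg alone (5 and 0). Only 5 cells had 2 members, all at 5 weeks, and no cell had fewer. In the 5-week cells that lacked Fli1, Sfpi was also missing in 2 of 4. These 2 were both on plate 1, and the 2 on plate 2 had Sfpi, so the count is small and differs by plate. In the 2-week cells that lacked Fli1, Sfpi was present in 11 of 11.

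**Figure D1:**
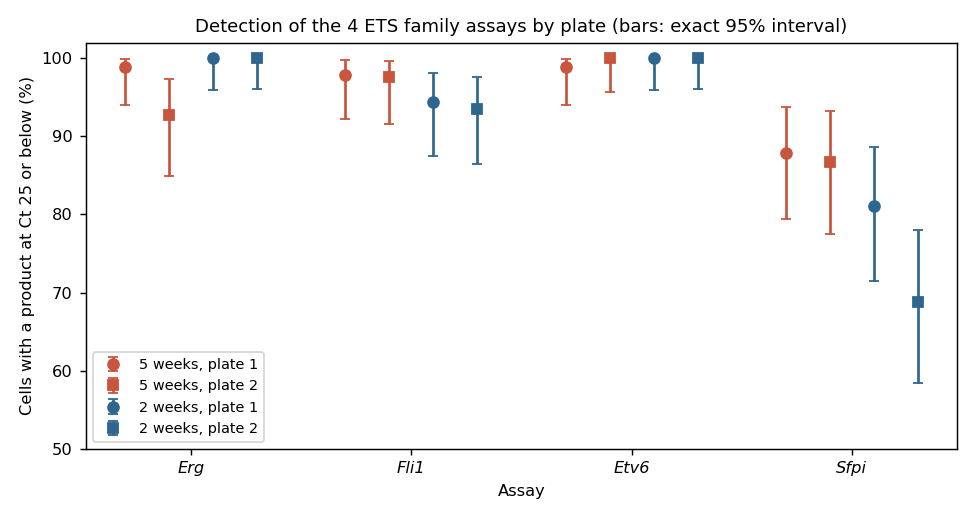
Share of cells with a product at Ct 25 or below (vertical axis, percent, from 50) for each assay and plate, with exact 95% intervals. Sfpi is the lowest on every plate and its 5-week plates (87.9 and 86.7%) lie above its 2-week plates (81.1 and 68.8%), while Erg is at 100% on the 2-week plates and at 92.8% on 5-week plate 2.

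Erg was detected in every 2-week cell and was missing from a few cells at 5 weeks. It had a product in 95.98% of 5-week cells (91.9 to 98.4%), against 100% of 2-week cells, where 0 cells without it allows a share of up to 1.64%. The plate shares were 98.9 and 92.8% at 5 weeks, against 100 and 100% at 2 weeks. Its share was thus lower on both 5-week plates, 1 of 7 assays of which that was so (7.29% of the 96 assays). Of the 7 cells without Erg, 6 were on 5-week plate 2, and the difference of -4.02 points was -1.10 without that plate. All 7 had a reference Ct above the median of their plate. The cell on 5-week plate 1 had products in 66 assays, where the median cell of that plate had 59. The 6 on 5-week plate 2 had reference Ct values of 13.1 to 15.7, and they had products in 27 to 57 assays, where the median cell of the plate had 58. What part low signal had in the missing Erg products was not tested. A linear fit that held the reference Ct gave -6.83 points, and when products later than Ct 18 counted as missing the plates overlapped.

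Fli1 was detected in slightly more cells at 5 weeks. It had a product in 97.7% of 5-week cells (94.2 to 99.4%), against 93.99% of 2-week cells (89.5 to 97.0%). The plate shares of 97.8 and 97.6% at 5 weeks stood above the 94.4 and 93.5% at 2 weeks. The plates of a time were closer to each other than to those of the other time, but the intervals of the times overlap, and the difference of 3.71 points rests on 4 cells without a product against 11. Once the number of other products in the cell entered a linear fit it was 1.79 points. Of the 15 cells without Fli1, 8 had a reference Ct above their plate's median and 13 had a product for Sfpi.

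Etv6 was the most evenly detected of the 4. It was found in all cells but 1 at 5 weeks (99.4%, 96.8 to 100%) and in all cells at 2 weeks (100%). The single cell without it, on 5-week plate 1, also lacked Sfpi and had a reference Ct of 13.7, higher than all but 7 cells of its plate. The plates overlapped in detection, with 98.9 and 100% at 5 weeks against 100 and 100% at 2 weeks.

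Sfpi was the member that many cells lacked, and fewer lacked it at 5 weeks. It had a product in 87.4% of 5-week cells (81.5 to 91.9%), against 74.9% of 2-week cells (67.9 to 80.97%). It was missing from 11 and 11 cells of the 5-week plates, against 17 and 29 cells of the 2-week plates. The plate shares were 87.9 and 86.7% at 5 weeks, against 81.1 and 68.8% at 2 weeks. The 5-week plates were alike, while the 2-week plates stood about as far from each other as the times did. The difference between times was 12.5 points, 6.25 points without 2-week plate 2 and 9.34 points in a linear fit that held the reference Ct. Both Fli1 and Sfpi counted among the 41 assays (42.7% of 96) whose 5-week plates both had higher shares, so a gain of that kind was common among all assays. In size, Sfpi ranked 18 of 96 by its gain in share and Fli1 ranked 45.

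Products of the 4 genes came early. None of the products was later than Ct 25, and each gene had between 0 and 3 products later than Ct 18 on a plate. Erg had a Ct of 12.2, 13.6 and 17.9 (lowest, median and highest) at 5 weeks, against 12.7, 14.5 and 19.04 at 2 weeks. Fli1 had 11.2, 13.8 and 17.9 at 5 weeks, against 10.7, 15.1 and 19.5 at 2 weeks. These are cycles as deposited, and both medians were earlier at 5 weeks. Etv6 had 10.5, 12.6 and 15.9 at 5 weeks, against 10.7, 13.5 and 19.3 at 2 weeks. Sfpi had 12.7, 15.1 and 20.5 at 5 weeks, against 13.02, 15.6 and 19.4 at 2 weeks. For each of the 4 genes the ranges of the times overlapped, and the median was earlier at 5 weeks. Cycles of different assays depend on primer efficiency, so the genes are not ordered by them.

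Fli1 had the largest difference in level of the 4. Level here means how many cycles earlier than the average of the reference assays a gene came up in the same cell. It is a log2 value, higher for more transcript relative to those assays, and it was averaged over detecting cells. Fli1 was at -1.10 ± 0.94 and -0.999 ± 0.84 on the 5-week plates (SD over 89 and 81 cells), against -1.58 ± 1.04 and -1.69 ± 1.07 on the 2-week plates (85 and 87 cells). Plates of the same time lay closer together than plates of different times. The overall difference was 0.59, with plate comparisons from 0.49 to 0.69, less than the SD over cells on any plate. It ranked 6 of the 80 assays that had 10 or more detecting cells on each plate.

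Etv6 also lay higher at 5 weeks on this scale. Its levels were 0.22 ± 0.76 and 0.20 ± 0.91 on the 5-week plates (90 and 83 cells), against -0.04 ± 0.96 and -0.14 ± 1.17 on the 2-week plates (90 and 93 cells). The plates of a time differed less than the times did, and the overall difference was 0.30, with plate comparisons from 0.24 to 0.36. It ranked 17 of 80.

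Erg and Sfpi overlapped between times. Erg was at -1.08 ± 0.89 and -0.76 ± 0.81 on the 5-week plates (90 and 77 cells), against -1.03 ± 0.92 and -1.09 ± 0.95 on the 2-week plates (90 and 93 cells). Only 5-week plate 2 stood above the others, the plate that held most of the cells without Erg, and the overall difference of 0.13 was -0.017 without that plate. Sfpi was at -2.31 ± 0.98 and -2.12 ± 1.03 on the 5-week plates (80 and 72 cells), against -2.21 ± 0.93 and -2.21 ± 1.10 on the 2-week plates (73 and 64 cells). The 2-week plates lay between the 5-week plates, with an overall difference of -0.0092. The overlap of Sfpi was lost with other summaries: the 5-week plates lay above the 2-week plates by 0.16 overall with medians over cells, by 0.34 relative to Actb and Gapdh alone and by 0.19 relative to the plate median of assays. Those of Erg did so too, by 0.17, 0.51 and 0.34.

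**Figure D2:**
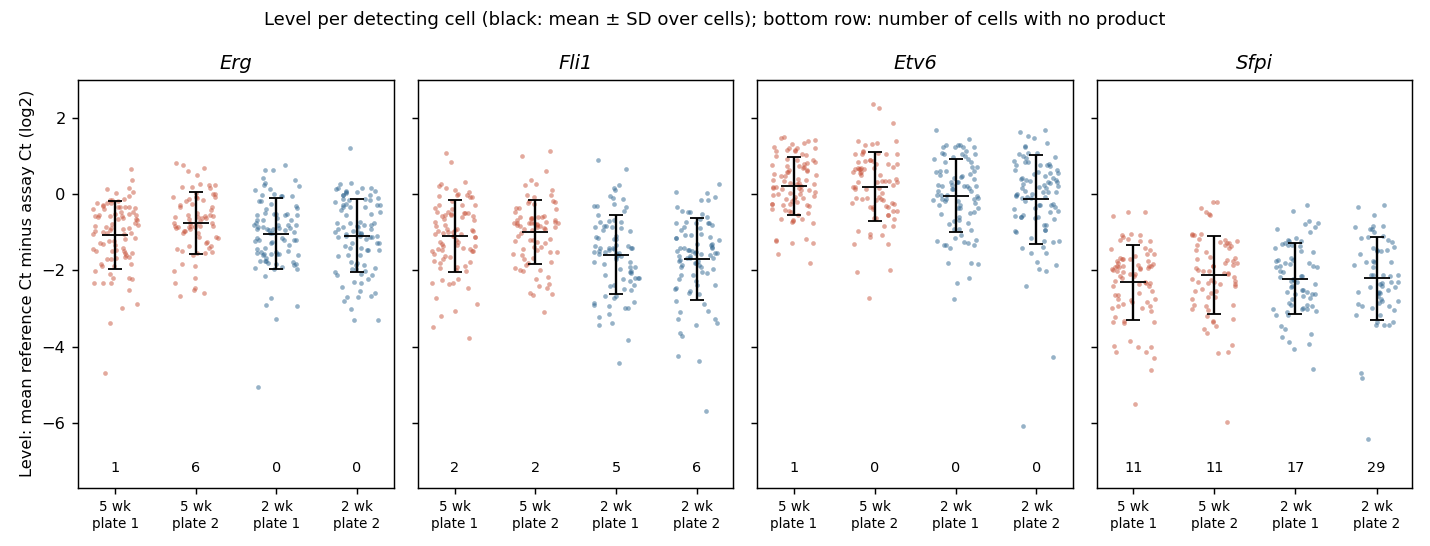
Level of each gene in every detecting cell (points), on a log2 scale as the mean reference Ct minus the Ct of the assay, by plate, with the mean and SD over cells in black and the number of cells without a product at the bottom. The Fli1 means of -1.10 and -0.999 at 5 weeks lie above -1.58 and -1.69 at 2 weeks, and the cells of all plates overlap.

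The levels depend on what they are centred on, and the median assay differed by -0.11 between times with the reference assays. With that median difference subtracted, Fli1 differed by 0.70, Etv6 by 0.41, Erg by 0.24 and Sfpi by 0.10. Centring each plate on its own median assay instead gave 0.79, 0.50, 0.34 and 0.19 in that order. Without centring the median assay differed by 0.37, and Fli1 by 1.06, Etv6 by 0.78, Erg by 0.64 and Sfpi by 0.50, with plates apart for each. Fli1 and Etv6 were 2 of 26 assays with higher levels on both 5-week plates (32.5% of 80), and none of the 4 was among the 35 with lower levels (43.8%). Uncentred levels gave counts of 49 higher and 6 lower, and levels relative to Actb and Gapdh alone gave 45 and 9. The reference assays also differed between times, from -0.72 for CDK4 to 1.05 for Nfe2, each measured against the others.

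**Figure D3:**
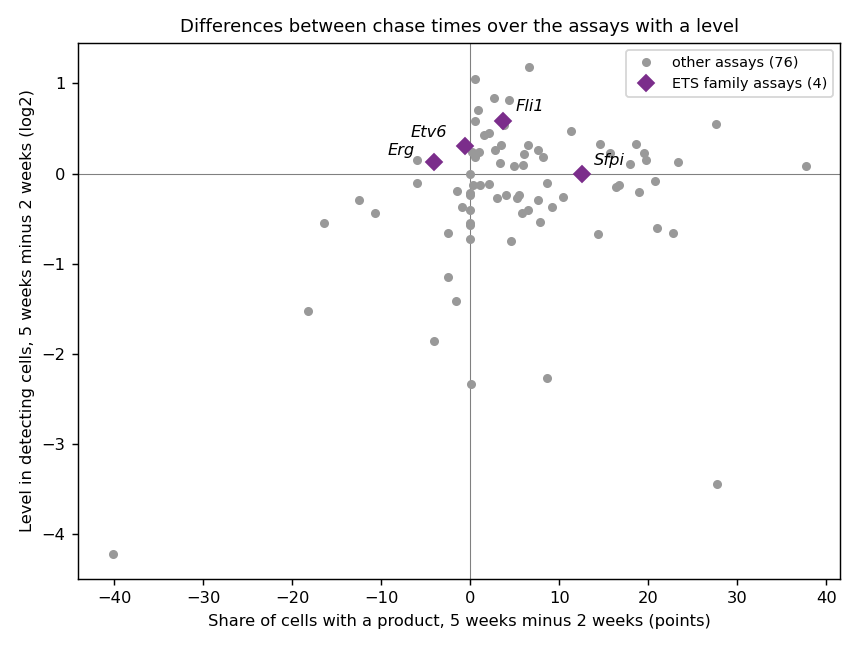
Difference (5 weeks minus 2 weeks) in the share of cells with a product (horizontal axis, percentage points) and in level (vertical axis, log2) for the 80 assays with a level. Fli1 (3.71 points, 0.59) lies above 0 in both, Etv6 (-0.57 points, 0.30) in level and Sfpi (12.5 points, -0.0092) in share. Other assays lie farther out in both directions. Levels are relative to the reference assays, and with other centrings that of Sfpi was higher at 5 weeks.

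Between cells of 1 plate the 4 genes varied by a middling amount. Among the 24 assays with a product in 90% or more of the cells of each plate, the mean within-plate SD of the level was 0.89 for Erg (rank 10 from the least variable), 0.95 for Etv6 (rank 15) and 0.97 for Fli1 (rank 17). It ran from 0.56 for Gapdh, a glycolytic enzyme, to 1.47 for Hlf. Sfpi, detected less widely, had an SD of 1.01. The Ct of each gene followed the overall signal of the cell to a different extent. Spearman's rho with the reference Ct was 0.64 and 0.57 for Fli1 on the 5-week plates, against 0.48 and 0.31 on the 2-week plates. For Erg it was 0.45 and 0.40 at 5 weeks, against 0.19 and 0.11 at 2 weeks. For Etv6 it was 0.60 and 0.34 at 5 weeks, against 0.45 and 0.28 at 2 weeks. For Sfpi it was 0.46 and 0.45 at 5 weeks, against 0.15 and 0.23 at 2 weeks. The reference Ct itself spread more widely on the 5-week plates (SD 0.61 and 0.69) than on the 2-week plates (0.54 and 0.53), and its part in these relations was not tested.

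Once the reference Ct was taken into account, the 4 genes showed next to no relation to each other on average over the plates. The measure was a partial Spearman correlation across the cells of a plate (83 to 93 cells), averaged over the 4 plates, with missing products set to Ct 25. All values of a cell share its RNA input and its pre-amplification, so these correlations describe the cells and carry no test. Erg and Fli1, the closest relatives, had a mean of 0.03 (-0.07 to 0.17 on the plates). Erg and Sfpi had 0.07 (-0.03 to 0.22), Erg and Etv6 0.03 (-0.07 to 0.15) and Etv6 and Sfpi 0.0039 (-0.13 to 0.06). By plate, Erg and Sfpi had 0.22 and 0.11 at 5 weeks, against -0.02 and -0.03 at 2 weeks. Fli1 and Etv6 had -0.03 (-0.25 to 0.05). Fli1 and Sfpi had -0.06 (-0.09 to -0.04), the single pair of the 6 with 1 sign on all plates, where 28.3% of the 3240 pairs among 81 assays kept 1 sign. With the Ct as deposited the means of the 6 pairs lay between 0.12 and 0.19.

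Among the assays most like Fli1 were Zfpm1, which encodes the GATA cofactor FOG1, with a mean partial rho of 0.30 (0.16 to 0.49), Gata2, a stem cell GATA factor, with 0.27 (0.17 to 0.34), and vwf, which encodes von Willebrand factor, with 0.25 (0.13 to 0.31). The most opposed were Hk3, a hexokinase of myeloid cells, with -0.14 (-0.29 to -0.07), and Flt3, a cytokine receptor of early lymphoid and multipotent cells, with -0.14 (-0.17 to -0.09). Over all 3240 pairs the mean partial rho had a median of 0.03 and ran from -0.12 to 0.19 between the 5th and 95th percentiles. The 3 positive partners of Fli1 were picked as the highest of 80, so lying above that range was largely built in. Each was weak, and the highest partners of Erg and Sfpi lay above it too (0.21 and 0.21). Of the 80 other assays, 23 were positive and 6 negative on all 4 plates with Fli1, 36.2% in all beside the 28.3% of all pairs.

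The assays most like Sfpi were Hlf with a mean partial rho of 0.21 (0.14 to 0.33), Kit with 0.20 (0.12 to 0.27), Cd34, a surface sialomucin, with 0.20 (0.12 to 0.32), and Csf2rb, the shared chain of several cytokine receptors, with 0.16 (0.03 to 0.23). The most opposed were Mllt3, a chromatin reader that maintains stem cells, with -0.21 (-0.23 to -0.17), and Zfpm1 with -0.17 (-0.21 to -0.13). Of the 5 assays named for Fli1, 4 had the other sign with Sfpi on all 4 plates, while Gata2 had a mean of 0.13 (-0.13 to 0.33). Besides Zfpm1 these were vwf with -0.16 (-0.29 to -0.10), Flt3 with 0.14 (0.10 to 0.19) and Hk3 with 0.09 (0.014 to 0.15). With Sfpi 15 of the 80 assays were positive and 14 negative on every plate, 36.2% in all beside 28.3% of all pairs. With the Ct as deposited, Zfpm1 had a mean of 0.03 with Sfpi, so its negative sign depends on the adjustment for the reference Ct. Hk3 then had 0.04 (-0.10 to 0.10) and no longer kept 1 sign on all plates. The values of vwf (-0.16 to -0.04) and Flt3 (0.02 to 0.15) still did.

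The nearest assays of Erg and Etv6 had lower correlations than those of Fli1. For Erg the nearest were Ly6a, which encodes Sca1, with 0.21 (0.08 to 0.31), Csf2rb with 0.20 (-0.01 to 0.32), Nfe2, an erythroid and megakaryocytic factor, with 0.20 (0.08 to 0.31), and the homeobox gene Nkx2-3 (assay Nkx2.3) with 0.18 (0.05 to 0.27). The most opposed were Gata1 with -0.18 (-0.33 to -0.02) and Itga2b, which encodes the platelet integrin CD41, with -0.14 (-0.19 to -0.09). With the Ct as deposited the mean of Erg and Itga2b was 0.0074. Gata1 thus lay on the negative side of Erg and, at 0.23 (0.15 to 0.28), on the positive side of Fli1. It had a product in only 20.1% of 5-week cells and 11.5% of 2-week cells, so these values rest on few cells. With the Ct as deposited, Gata1 had a mean of -0.08 (-0.18 to 0.03) with Erg and 0.34 (0.29 to 0.40) with Fli1. For Etv6 the nearest were Hlf with 0.19 (0.13 to 0.27), the factor Runx1 with 0.16 (0.09 to 0.27), Nfe2 with 0.16 (0.09 to 0.24) and the adaptor Lmo2 with 0.15 (0.10 to 0.20). The most opposed were Cebpa, a granulocyte factor, with -0.12 (-0.16 to -0.05), and Ccnd1, which encodes cyclin D1, with -0.11 (-0.15 to -0.05). The mean of Etv6 and Ccnd1 was 0.05 with the Ct as deposited, so that sign too depends on the adjustment. Cebpa then had -0.04 (-0.17 to 0.05) with Etv6 and no longer kept 1 sign on all plates. Assays with 1 sign on all plates made up 27.5% for Erg and 20.0% for Etv6, at or below the share over all pairs.

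**Figure D4:**
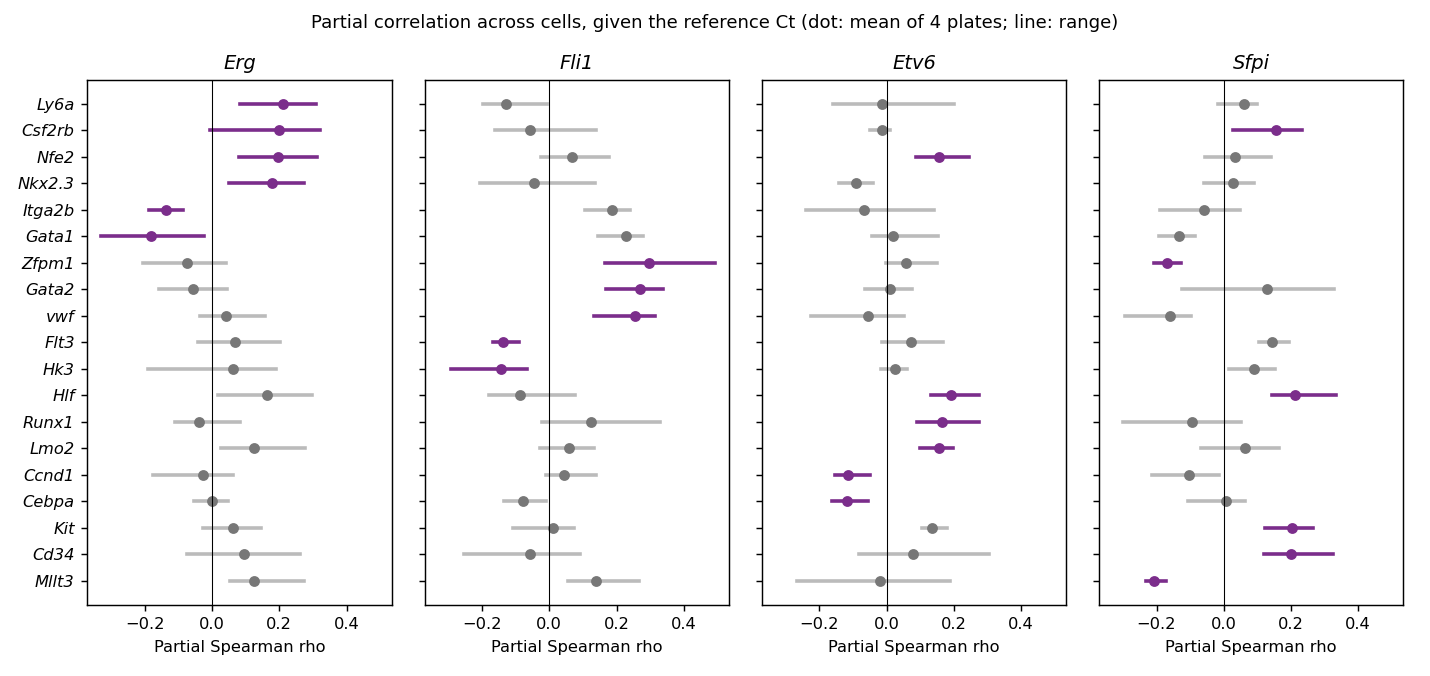
Partial Spearman correlation across cells, given the reference Ct, between each ETS assay (panels) and the assays named as most like or most opposed to any of the 4 (rows). Dots are means of the 4 plates, lines the range, and purple marks the assays chosen for that panel. Zfpm1 and vwf lie right of 0 for Fli1 (0.30 and 0.25) and left of 0 for Sfpi (-0.17 and -0.16).

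The genes that work with these factors were compared in the same way. Of 8 partners of Erg and Fli1 in stem cells, all measured, 5 had higher shares on both 5-week plates, none lower, and 3 overlapped, with a median difference of 2.40 points beside 2.85 over all assays. In level 6 of the 8 were higher, 1 was lower and 1 overlapped (median 0.26, against -0.11 over all assays). Gata2, Ldb1, Lmo2 and Meis1 among them were also reference assays, each left out of its own reference. Tal1, the core factor of the stem cell complex, had a product in 97.7% of 5-week cells and 81.97% of 2-week cells. Runx1 was found in 98.9% of 5-week and 91.3% of 2-week cells, and Tcf3, which encodes the E2A proteins, in 100 and 95.6%.

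Of 12 myeloid and lymphoid genes linked to PU.1, 6 were measured. Of these, 2 had higher shares at 5 weeks, 1 a lower share and 3 overlapping plates (median 2.08 points). In level, 0 of the 5 that had one were higher, 4 were lower and 1 overlapped, and the median was -0.23. Cebpb, a myeloid factor, had a product in 33.9% of 5-week cells and 14.2% of 2-week cells. Csf1r, a receptor of macrophages and a known PU.1 target, had one in 2.30% of 5-week and 14.8% of 2-week cells, the other way from Sfpi. Cebpa had one in 59.8 and 70.5%, with overlapping plates. Of 9 factors that oppose or partner PU.1, all measured, 7 had higher shares, 1 a lower share and 1 overlapping plates (median 2.73 points). Of the 7 with a level, 4 were higher, 2 lower and 1 overlapped (median 0.26). Among them Gfi1b, a repressor of erythroid and megakaryocytic cells, had a product in 74.7% of 5-week and 60.1% of 2-week cells. Cebpb and Cebpa, with the values just given, were also among its 3 members of largest difference.

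Of 10 megakaryocyte genes, 7 were measured, and 5 had higher shares, none a lower share and 2 overlapping plates (median 8.64 points). All 7 had a level, of which 5 were higher and 2 lower (median 0.43). The 2 lower ones were vwf (-0.13) and Gata1 (-2.27). Products of vwf were found in 51.1% of 5-week cells and 34.4% of 2-week cells, and those of Itga2b in 51.1 and 39.9%. Gfi1b was the other of its 3 most different members. Of 9 endothelial and stem cell receptors 3 were measured, with a median of 16.4 points in share and 0.11 in level, where 1 was higher and 2 overlapped. Tek (assay TEK), the angiopoietin receptor, had a product in 64.9% of 5-week and 46.99% of 2-week cells, and Cd34 in 77.01 and 60.7%, both with plates apart, and Kit overlapped. These shares stand beside the 42.7% of all assays with higher shares on both 5-week plates and the higher overall signal of the 5-week cells, whose part in them was not tested. The level counts of these lists stand beside 32.5% of 80 assays higher and 43.8% lower. They are not independent of the reference, since Gata2, Ldb1, Lmo2, Meis1, Nfe2, Zfpm1 and Kit were also reference assays. Such counts depend on the centring, and uncentred levels gave 49 assays higher and 6 lower.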

How the data were processed

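Single HSCs were lysed in wells, pre-amplified for 22 cycles with all 96 assays, diluted 5-fold and read by EvaGreen quantitative PCR over 30 cycles on a dynamic array, per the labels' protocols. The deposited value is the raw threshold cycle (handled as a score), and the authors wrote 999 where a reaction had no product. What software set it is not given in the sources used here. The table gave 34272 reactions, 13989 of them without product, in 357 cells (174 at 5 weeks, 183 at 2 weeks), all mapped by their titles. No cells were duplicates, and 0 wells fell under the minimum of 20% of assays.

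A product at Ct 25 or below counted as detected. The 13 reference assays (Zfpm1, Trp53, Kit, Hlf, Actb, Gapdh, Meis1, Lmo2, Ldb1, Nfe2, Gata2, CDK4 and Ccnd2) had a product in 95% or more of the cells of each plate. Etv6, which also did, was left out, as was the assay being measured. Shares carry Clopper-Pearson 95% intervals, and a count of 0 was given the limit of 3 counts. Plates, the only repeated unit and perhaps a technical one, were compared in place of a test, and an assay counted as higher or lower where every 5-week plate was above or below every 2-week plate. Partners were the 4 highest and 2 lowest mean partial correlations among the 81 assays with a product in 10% or more of the cells of each plate. One assay chosen this way is not reported here. From each list up to 3 members with the largest difference in share are named. Erg, Fli1, Etv6 and Sfpi and the lists were chosen with earlier results of these data known. Alternatives were other Ct limits, centrings, averages and covariates, equal plate weights, a filter on cells of outlying reference Ct and each plate left out. Of the assay names 82 matched a RefSeq symbol, 12 in another case and 1 by synonym. The steps were tested on simulated data. Python 3.11.15, pandas 2.3.3, numpy 2.4.6 and scipy 1.17.1 were used.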

Additional observations from a re-analysis of the deposited data

How the results depend on the processing

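With other Ct limits, equal plate weights or the filter on 3 cells of outlying reference Ct, the share differences of Erg, Etv6, Sfpi and all 4 genes together moved by less than the spread between plates, and that of Fli1 was 4.26 points at Ct 18. With covariates the share difference of Fli1 was 2.81 points (reference Ct) and 1.79 points (number of other assays). Leaving out 1 plate in turn gave share differences from -7.23 to -1.10 points for Erg, from -1.10 to 0 for Etv6 and from 6.25 to 18.5 for Sfpi. It gave level differences from -0.017 to 0.30 for Erg and from -0.10 to 0.094 for Sfpi.

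Level differences of Erg, Fli1, Etv6 and Sfpi were 0.64, 1.06, 0.78 and 0.50 for uncentred levels, 0.51, 0.96, 0.67 and 0.34 relative to Actb and Gapdh alone, and 0.34, 0.79, 0.50 and 0.19 relative to the plate median of assays. Over all cells, with missing products at the limit, they were -0.28, 0.93, 0.24 and 1.14, where the negative value of Erg and the high value of Sfpi follow from the cells without a product. In a linear fit of Ct on the reference Ct they were 0.38 for Erg, 0.40 for Etv6 and 0.17 for Sfpi. Taking medians gave 0.23 for Etv6 and 0.16 for Sfpi, and Ct 18 gave 0.36 for Etv6. Fli1 and Etv6 were higher at 5 weeks under all 16 alternatives, and Erg under 14 and Sfpi under 10. The mean correlation of Fli1 and Sfpi was 0.12 with the Ct as deposited, against -0.06 given the reference Ct. Assays with lower levels numbered 35, but 18 at Ct 18, 15 relative to the plate median, 9 relative to Actb and Gapdh and 6 uncentred. Assays with higher levels numbered 26, but 45 relative to Actb and Gapdh and 49 uncentred. The cause of these shifts was not tested. No paired analysis was possible because the labels name no animals and each plate held 1 time.

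The number of plates limits what these comparisons can show, since 2 plates of each time give no test, and a share near 100% can move by only a few cells.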
